A study of Mus musculus with 18 samples.

Results

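The BCL2 family of survival and death genes is described here in RNA-seq counts of mouse bone marrow-derived macrophages (BMDMs). The members were 10 genes chosen by symbol, Bcl2, Bcl2l1, Mcl1, Bcl2a1a, Bcl2a1b, Bcl2a1d, Bcl2l11, Pmaip1, Bbc3 and Bax. They are 10 of the 50600 rows of the count table, and all 10 were among the 15663 genes with enough counts to be tested. Marrow cells of WT mice or of IRF5 KO mice (Irf5-/-), which lack the transcription factor interferon regulatory factor 5, were grown for 8 days in GM-CSF. They were given DMSO or 3.5 μM defactinib for 1 h, followed by 2 h with 100 ng/ml LPS, or no stimulus. Cells without a stimulus are labelled 0 h. Each comparison of LPS against unstimulated cells thus also sets 2 h against 0 h. LPS is the bacterial ligand of TLR4, and FAK and its relative PYK2 are the kinases that defactinib inhibits. Each genotype thus gave 3 groups, named unstimulated, LPS DMSO and LPS defactinib, and each of the 6 groups had 3 biological replicates. The unstimulated libraries are labelled DMSO in the sample records but carry an untreated mark in the count table. No group received defactinib without LPS. The comparisons ask how LPS, defactinib and the loss of IRF5 change the levels of these transcripts.

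Proteins of the BCL2 family decide whether the outer membrane of mitochondria is opened in apoptosis. The pro-survival members BCL2, BCL-XL (from Bcl2l1), MCL1 and A1 (from the Bcl2a1 genes) hold back the effectors BAX and BAK, which form the pores. The BH3-only proteins BIM (from Bcl2l11), NOXA (from Pmaip1) and PUMA (from Bbc3) bind the pro-survival proteins and so free the effectors, and NOXA binds mainly MCL1 and A1. In macrophages and other myeloid cells, TLR ligands are known to raise A1 and BCL-XL through NF-kB, and MCL1 is a protein of short half-life. Transcript levels do not give the levels or the binding of the proteins, and only transcripts were measured.

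On mm10, Bcl2 lies at chr1:106538178-106714274, Bcl2l1 at chr2:152780668-152831728, Mcl1 at chr3:95658788-95663176 and Bax at chr7:45461697-45466898. Of the BH3-only genes Bcl2l11 lies at chr2:128126038-128162547 and Bbc3 at chr7:16308393-16318205. The A1 genes lie at chr9:88956900-88962419 (Bcl2a1a), chr9:89199209-89207827 (Bcl2a1b) and chr9:88723285-88731914 (Bcl2a1d).

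The Bcl2a1 genes are near-identical copies on chromosome 9, which bears on every value given for them, so that part of their sequence is shown first. In each copy 516 coding bases were compared, without the stop codon. Bcl2a1a and Bcl2a1b differed at 11 of them (97.9% identity), Bcl2a1a and Bcl2a1d at 7 (98.6%), and Bcl2a1b and Bcl2a1d at 6 (98.8%). Of all stretches of 100 coding bases, 54.0% were identical between Bcl2a1a and Bcl2a1d, 28.3% between Bcl2a1a and Bcl2a1b and 30.5% between Bcl2a1b and Bcl2a1d. The first 90 coding bases, in exon 1 (GRCm38/mm10, 5′ to 3′, from GENCODE transcripts), hold 6 of the 12 positions at which the copies differ, and capitals mark these positions.
Bcl2a1a, chr9:88957051-88957140, plus strand: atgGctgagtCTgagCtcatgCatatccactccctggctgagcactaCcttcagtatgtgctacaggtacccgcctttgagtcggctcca
Bcl2a1b, chr9:89199360-89199449, plus strand: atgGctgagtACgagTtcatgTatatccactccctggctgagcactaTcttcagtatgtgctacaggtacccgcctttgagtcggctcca
Bcl2a1d, chr9:88731630-88731719, minus strand: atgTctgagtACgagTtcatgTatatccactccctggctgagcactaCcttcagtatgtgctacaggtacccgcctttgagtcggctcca
Only read pairs placed at 1 site were counted, so pairs that fall wholly in shared stretches are missing from the counts of all 3 copies. Bcl2a1a took 25.1 to 31.9% of the counts of the 3 copies in a library, Bcl2a1b 18.2 to 21.8% and Bcl2a1d 48.3 to 54.9%. The split between copies is therefore uncertain, and the copies are also given summed.

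Promoters were taken from RefSeq (GRCm38.p6, 250 bases before to 50 after each start) and matched 9 of the 10 members, with 14 starts and not Pmaip1. Bcl2a1a and Bcl2a1b also share the sequence before their starts. Over 186 bases, they differed at 1 (99.5% identity). Bcl2a1d was not compared. The stretches outside annotated exons are shown 5′ to 3′.
Bcl2a1a, chr9:88956670-88956899, plus strand: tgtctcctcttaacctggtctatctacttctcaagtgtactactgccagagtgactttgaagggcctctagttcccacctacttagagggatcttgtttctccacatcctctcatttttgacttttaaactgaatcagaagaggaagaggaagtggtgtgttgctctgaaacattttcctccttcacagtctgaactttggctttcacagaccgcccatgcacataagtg
Bcl2a1b, chr9:89199023-89199208, plus strand: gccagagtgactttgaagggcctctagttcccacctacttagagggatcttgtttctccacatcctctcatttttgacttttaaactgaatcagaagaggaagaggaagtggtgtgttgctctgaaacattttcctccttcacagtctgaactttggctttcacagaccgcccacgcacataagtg
Bcl2a1d, chr9:88731915-88731997, minus strand: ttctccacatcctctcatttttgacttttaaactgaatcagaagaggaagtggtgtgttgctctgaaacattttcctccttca
Matches on either strand to an NF-kB consensus, the ISRE core (GAAA, any 2 bases, GAAA) to which interferon regulatory factors bind, the FOXO motif GTAAACA and the TATA motif TATAAA were looked for in all 32851 RefSeq promoters. The NF-kB consensus was found in 2 of the 14 member starts and in 8.46% of all promoters. The FOXO motif was found in 2 of 14 and in 3.65%. The ISRE core (3.44% of all promoters) and the TATA motif (13.6%) were in no member start. The promoters of the BH3-only genes Bcl2l11 and Bbc3 are shown because both hold matches, in capitals. These are a FOXO motif 227 to 221 bases before the first Bcl2l11 start, a pair of overlapping NF-kB matches 137 to 127 bases before the first Bbc3 start, and a FOXO motif 167 to 161 bases before the second Bbc3 start.
Bcl2l11, chr2:128125788-128126037, plus strand: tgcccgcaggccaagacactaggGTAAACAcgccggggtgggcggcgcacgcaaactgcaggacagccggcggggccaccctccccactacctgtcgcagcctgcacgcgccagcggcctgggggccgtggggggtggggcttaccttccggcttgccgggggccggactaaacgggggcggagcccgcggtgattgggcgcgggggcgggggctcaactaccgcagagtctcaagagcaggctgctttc
Bbc3, chr7:16309333-16309582, plus strand: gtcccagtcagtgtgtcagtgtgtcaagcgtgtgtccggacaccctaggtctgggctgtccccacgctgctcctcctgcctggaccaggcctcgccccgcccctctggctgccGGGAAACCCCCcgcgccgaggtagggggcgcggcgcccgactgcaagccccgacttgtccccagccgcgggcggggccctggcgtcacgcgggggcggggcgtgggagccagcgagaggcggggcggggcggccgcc
Bbc3 second start, chr7:16310011-16310260, plus strand: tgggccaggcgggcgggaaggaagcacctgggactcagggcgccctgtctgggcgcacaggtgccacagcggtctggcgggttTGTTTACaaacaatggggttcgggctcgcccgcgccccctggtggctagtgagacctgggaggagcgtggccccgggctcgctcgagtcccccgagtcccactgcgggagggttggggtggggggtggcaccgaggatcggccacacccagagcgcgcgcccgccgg
The other match, to the NF-kB consensus, lay 242 to 233 bases before the second of 3 Bcl2l1 starts. Binding to these windows was not measured in these data.

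The libraries held 39282181 to 61949143 counted pairs (median 45317217.5). The lowest count of a member in a library was 242 pairs, for Bbc3, and the highest was 40508 pairs, for Bcl2a1d. Normalised counts are given as CPM, counts scaled to library size and edgeR's TMM factors. All 8 macrophage markers were above 1 CPM in every library, and their summed level was 9740 to 19152 CPM. The sum hides single genes. In WT given LPS, Cd14 (63.9 to 134 against 326 to 467 CPM) and Mertk (37.2 to 65.2 against 124 to 182 CPM) lay lower with defactinib than with DMSO without overlap, Adgre1 (132 to 343 against 82.97 to 100.5 CPM), Csf1r, Cd68, Itgam and Lyz2 lay higher, and Fcgr1 overlapped. Dendritic cell markers (8 genes) summed to 1979 to 2963 CPM. In WT given LPS, 3 of them lay lower with defactinib than with DMSO without overlap, Ccr7 at 8.78 to 47.6 against 266 to 368 CPM, Zbtb46 at 19.99 to 30.2 against 86.5 to 97.2 CPM and Xcr1 at 0.026 to 0.070 against 0.23 to 0.37 CPM. Another 2 lay higher, Dpp4 at 22.7 to 37.4 against 10.01 to 12.996 CPM and Clec9a at 9.38 to 10.07 against 4.45 to 5.87 CPM, and 3 overlapped. The part of these cells in the results was not tested. For no comparison of markers was the share of all tested genes that lay apart without overlap counted. Of 10 neutrophil markers, Mmp8 was at 169 to 352 CPM in WT and 992 to 2563 CPM in IRF5 KO libraries, while the sums of the other 9 overlapped, at 62.9 to 237 CPM and 76.2 to 186 CPM. Of 7 mast cell and basophil markers, Gata2 (0.31 to 4.32 CPM in WT and 25.9 to 51.5 CPM in IRF5 KO) did not overlap and Kit (6.29 to 10.4 CPM and 10.1 to 20.8 CPM) overlapped slightly between the genotypes, while the other 5 summed to at most 2.35 CPM in any library. Markers of T, B and NK cells (9 genes) summed to at most 3.44 CPM. Mitochondrial transcripts took 1.05 to 1.26% of counts in WT LPS defactinib, 0.67 to 0.91% in WT LPS DMSO and 0.48 to 0.93% in the IRF5 KO libraries. In bulk RNA, fewer cells of a type and less RNA per cell cannot be told apart. The knockout was checked on Irf5, which was at 587, 606 and 650 CPM in WT unstimulated and at 335, 397 and 364 CPM in IRF5 KO unstimulated libraries. After LPS it did not separate the genotypes, with 434 to 475 CPM in WT LPS DMSO, 345 to 435 CPM in IRF5 KO LPS DMSO, 213 to 379 CPM in WT LPS defactinib and 353 to 392 CPM in IRF5 KO LPS defactinib. The transcript was thus still counted in the knockout, and counts over the whole gene do not show which exons are lost, so genotype follows the labels alone.

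Library 3 of IRF5 KO LPS DMSO stood apart from libraries 1 and 2. Chi-square per gene, which is 1 for sampling noise alone, was 441 and 425 between it and these libraries, 2.33 between libraries 1 and 2, and 3.82 to 183 within the other groups. Over log2 CPM of all tested genes, libraries 1 and 2 correlated with IRF5 KO LPS defactinib at r = 0.985 to 0.987 and with IRF5 KO unstimulated at 0.925 to 0.926. Library 3 correlated at 0.941 to 0.943 and at 0.978 to 0.979. The long non-coding RNA Gm26917 took 2.18 to 4.15% of counts with LPS and defactinib in WT and 1.06 to 1.70% in IRF5 KO. Its share was up to 2.57% in IRF5 KO LPS DMSO with 0.0125% in library 3, and at most 0.0154% elsewhere. The labels were kept as given. Results of the members that use IRF5 KO LPS DMSO are therefore given for all 3 libraries. For part of them, values without library 3 or with library 3 as the lone library of its group are added. In the last case the spread of the group is assumed to be that of the other groups.

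Levels can be compared between genes only per length, and were expressed as CPM per kilobase of annotated exons. In WT unstimulated BMDMs the order of mean levels was Bcl2a1d (389 CPM per kilobase), Bcl2a1a (221), Bcl2a1b (151), Mcl1 (134), Bax (74.5), Bcl2l1 (25.97), Pmaip1 (17.2), Bbc3 (7.66), Bcl2 (6.18) and Bcl2l11 (3.27). No neighbours in this order overlapped between libraries. After LPS with DMSO the mean levels per kilobase of Mcl1 (152) and Bcl2l1 (150) overlapped, as did those of Bcl2l11 (21.1) and Bbc3 (16.6), while Bcl2 (3.10) was lowest. In WT LPS defactinib Bax (93.1) stood above Mcl1 (46.6), and Pmaip1 (13.2) overlapped with Bcl2l1 (10.4). In IRF5 KO unstimulated BMDMs Pmaip1 (38.9 CPM per kilobase) stood above Bcl2l1 (17.4), the reverse of the order in WT, and Bcl2a1b (139) overlapped with Mcl1 (137) and Bbc3 (6.55) with Bcl2 (6.01).

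Summed by role, the 6 pro-survival genes were at 928 ± 51.2 CPM per kilobase (SD, n = 3) in WT unstimulated, 2437 ± 98.5 in WT LPS DMSO and 1062 ± 148 in WT LPS defactinib. In IRF5 KO they were at 844 ± 57.5 unstimulated, at 984, 977 and 1550 in the 3 LPS DMSO libraries, and at 1086 ± 59.7 with defactinib. The 3 BH3-only members were at 28.1 ± 0.38, 67.5 ± 3.90 and 20.7 ± 4.01 CPM per kilobase in the same WT groups, and at 48.1 ± 8.46, 80.7 ± 3.43 and 88.9 ± 3.18 in IRF5 KO. All 9 IRF5 KO libraries (42.1 to 91.8) were thus above the WT unstimulated and WT LPS defactinib libraries for the BH3-only sum. Pmaip1 made up 70.2 to 84.4% of this sum in IRF5 KO. Without it the order of the genotypes turned in unstimulated cells, with Bcl2l11 and Bbc3 together at 10.7 to 11.3 CPM per kilobase in WT and 8.91 to 9.77 in IRF5 KO, and after LPS with DMSO, at 33.9 to 41.9 in WT, the highest of the groups, and 18.9 to 23.8 in IRF5 KO. With LPS and defactinib they were at 6.65 to 8.01 in WT and 21.5 to 26.6 in IRF5 KO. The ratio of the pro-survival to the BH3-only sum was 33.0 ± 2.09 in WT unstimulated, 36.2 ± 1.10 in WT LPS DMSO and 42.2, 44.4 and 74.0 in WT LPS defactinib. It was 17.8 ± 2.22 in IRF5 KO unstimulated, 11.9, 11.8 and 20.2 in IRF5 KO LPS DMSO, and 12.2 ± 0.68 in IRF5 KO LPS defactinib. The lowest ratio in WT, 30.9, was above the highest in IRF5 KO, 20.2. With Pmaip1 left out of the BH3-only sum, the ratios of the genotypes overlapped in unstimulated cells (81.0 to 87.6 in WT and 79.7 to 98.3 in IRF5 KO) and after LPS with DMSO (60.5 to 71.7 and 41.0 to 81.8), and did not overlap after LPS with defactinib (122 to 184 and 38.5 to 52.6). These sums are descriptions without a test, and A1 copies make up most of the pro-survival sum. The BH3-only sum and the ratios are those of the members alone, since other expressed BH3-only genes, such as Bmf and Bid, are left out. In WT, both lay lower after LPS with DMSO, while the sum of the members rose. Bmf was at 57.4 to 64.4 CPM unstimulated and 7.28 to 10.9 CPM after LPS. Bid was at 25.99 to 27.6 CPM and 17.8 to 22.5 CPM.

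**Figure D1:**
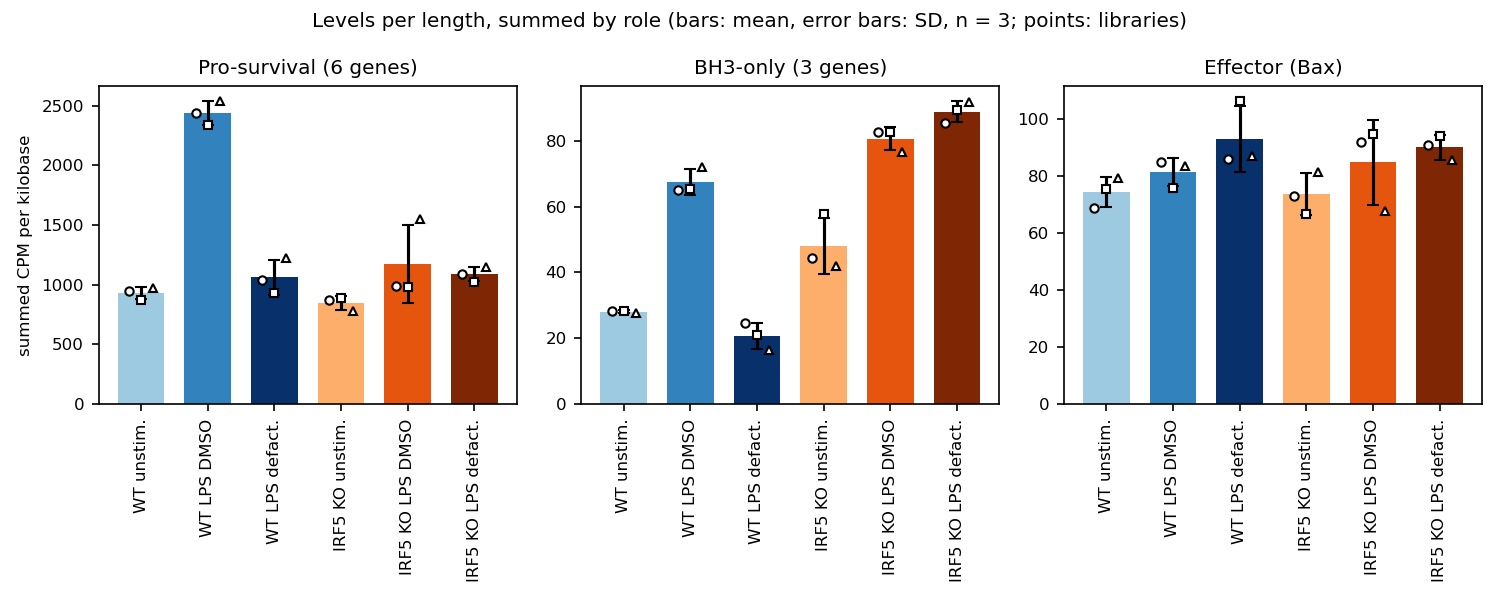
Levels per length summed by role in the 6 groups, in CPM per kilobase from 0. Bars are means, error bars SD (n = 3) and symbols the 3 libraries. The pro-survival sum is highest in WT LPS DMSO (2437). The BH3-only sum holds the 3 members alone, without Bmf or Bid, and most of it is Pmaip1 in IRF5 KO. It is highest in the IRF5 KO groups given LPS (80.7 and 88.9). The Bax level lies between 66.6 and 106 in all libraries.

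LPS raised the A1 genes, Bcl2l1, Bcl2l11 and Bbc3 in WT BMDMs. A gene was called at a false discovery rate below 0.05 with a change of over 2-fold. Of the 10 members 6 were called higher and none lower with LPS, where 11.6% of the 15663 tested genes were called higher and 9.71% lower. The members' median log2 fold change was 1.29, beside -0.0045 for all tested genes. Of the 6, 3 are the near-identical copies.

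Of the pro-survival genes, Bcl2l1 was at 114, 112 and 132 CPM in WT unstimulated and at 607, 721 and 739 CPM in WT LPS DMSO. The libraries of the groups lay far apart, and the log2 fold change was 2.53 (standard error, SE, 0.27, adjusted p = 2.83e-06, edgeR), a 5.79-fold rise. Bcl2a1a went from 184, 170 and 189 CPM to 504, 481 and 527 CPM, a log2 fold change of 1.48 (SE 0.14, adjusted p = 8.93e-07). Bcl2a1b and Bcl2a1d rose alike, by 1.53 and 1.47 on the log2 scale, and the sum of the copies rose by 1.49 (SE 0.15, adjusted p = 1.35e-06), or 2.80-fold. Mcl1 was at 465, 456 and 457 CPM before and 517, 503 and 534 CPM after LPS. Its log2 fold change of 0.17 (95% interval -0.17 to 0.52) did not pass the test (adjusted p = 0.431). Bcl2 was at 55.7, 57.8 and 56.3 CPM before and 25.5, 26.8 and 32.8 CPM after LPS. The groups did not overlap, yet at -0.99 (SE 0.18, adjusted p = 0.000416) it lay just inside the fold threshold and was not called. It was called with library size alone (-1.37), no filter, limma-voom, the lone library 3 of IRF5 KO LPS DMSO, and without WT LPS DMSO library 3 (-1.11) or WT unstimulated library 1 or 3.

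Of the death genes, Bcl2l11 had the largest rise of the members. It was at 27.3, 26.2 and 25.3 CPM before and 144, 176 and 188 CPM after LPS, a log2 fold change of 2.69 (SE 0.16, adjusted p = 8.86e-09). Bbc3 was at 15.6, 15.9 and 17.3 CPM before and 34.0, 32.3 and 39.2 CPM after, a log2 fold change of 1.11 (SE 0.21, adjusted p = 0.000439). This call was lost with scaling by library size alone (0.73). Pmaip1 was at 46.7, 46.2 and 43.4 CPM before and 82.5, 74.5 and 79.6 CPM after LPS. Its log2 fold change of 0.80 (adjusted p = 0.000771) was below the fold threshold. The effector Bax was at 108, 119 and 125 CPM before and 134, 120 and 132 CPM after, groups that overlapped (log2 fold change 0.13, adjusted p = 0.443).

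**Figure D2:**
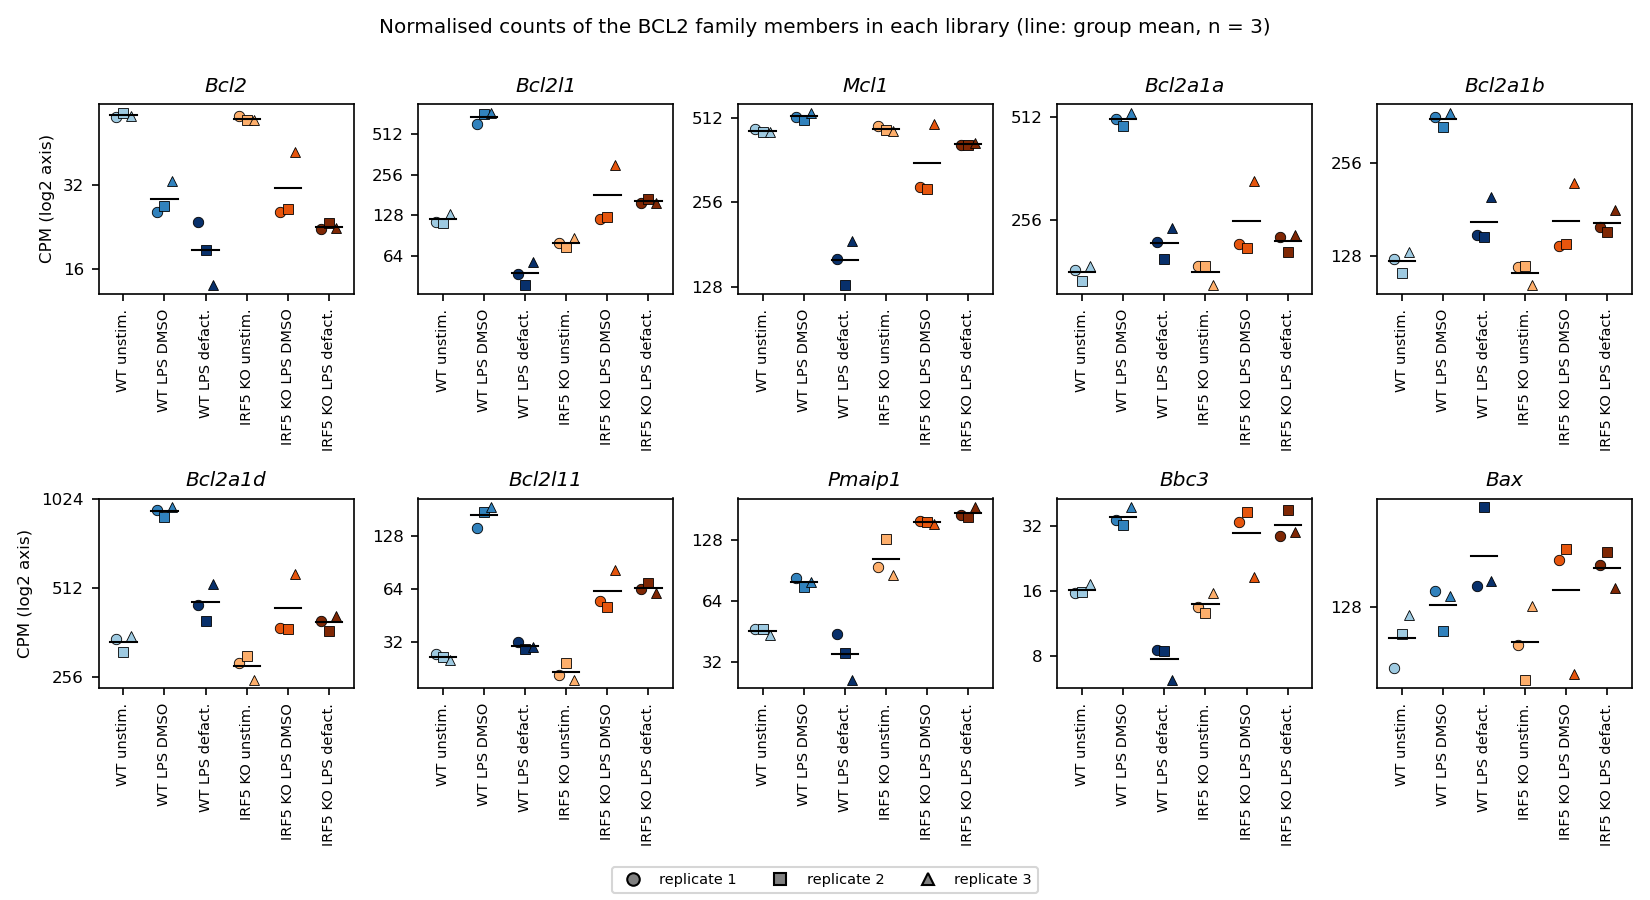
Normalised counts (CPM, log2 axis, a separate scale per gene) of the 10 members in each of the 18 libraries. Symbols are replicates 1 to 3 and lines are group means (n = 3). Bcl2l1, Bcl2l11 and the Bcl2a1 copies peak in WT LPS DMSO, Pmaip1 is highest in IRF5 KO groups, and the triangle of IRF5 KO LPS DMSO (replicate 3) lies away from the other symbols for most genes.

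In IRF5 KO BMDMs, LPS raised Bcl2l11, and the calls of Bcl2l1 and Bbc3 rested on which libraries were used. With all libraries 3 members were called higher and none lower, where 7.07% of tested genes were called higher and 6.28% lower. Without library 3, Bcl2l11 and Bbc3 were called higher and Bcl2 lower, beside 9.64% of tested genes higher and 16.6% lower. With library 3 alone, Bcl2l1, Bcl2l11 and Bcl2a1d were called higher, beside 2.66% and 0.0419%. The share called lower was 1.47% without library 1 or without library 2. Bcl2l11 was at 20.7, 24.4 and 19.5 CPM unstimulated and at 54.5, 50.7 and 82.1 CPM after LPS (log2 fold change 1.54, SE 0.16, adjusted p = 1.42e-05). It was called without library 3 (1.29) and with library 3 alone (1.95). Bcl2l1 was at 79.8, 73.8 and 86.4 CPM unstimulated and at 121, 124 and 300 CPM after LPS (1.18, adjusted p = 0.00477). Without library 3 its log2 fold change was 0.61 (adjusted p = 0.000596) and it was no longer called, while library 3 alone gave 1.92 (adjusted p = 5.38e-07).

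Bbc3 in IRF5 KO was at 13.4, 12.7 and 15.6 CPM unstimulated and at 33.5, 37.2 and 18.5 CPM after LPS, with library 3 the lowest (1.10, adjusted p = 0.00219). It was not called without library 2 (0.92) or with library 3 alone (0.43), and gave 1.35 without library 3. With library size alone neither Bcl2l1 (0.991) nor Bbc3 (0.835) was called. The A1 copies together had a log2 fold change of 0.58 (SE 0.15, adjusted p = 0.00868), below the fold threshold. Without library 3, Bcl2a1a, Bcl2a1b and Bcl2a1d were at 0.25, 0.29 and 0.41, and with library 3 alone at 0.90, 0.98 and 1.04. Bcl2a1d was called with library 3 alone (1.04). Pmaip1 at 0.60 (adjusted p = 0.0107) was also below the fold threshold, and Bax at 0.20 (adjusted p = 0.204) did not pass the test. Without library 3 Bax was at 0.34 (adjusted p = 0.00977) and passed, and with library 3 alone it was at -0.11. Bcl2 was at 56.3, 54.4 and 54.4 CPM unstimulated and 25.6, 26.2 and 41.9 CPM after LPS. Its log2 fold change of -0.82 (adjusted p = 0.00502) was not called, and became -1.09 and called without library 3. Mcl1 was at 479, 464 and 459 CPM unstimulated and at 290, 286 and 486 CPM after LPS. The value of library 3 was above all unstimulated libraries and those of libraries 1 and 2 below them (-0.40, adjusted p = 0.063). Without library 3 Mcl1 was at -0.70 (adjusted p = 2.16e-05) and passed the test, and with library 3 alone it was at 0.07.

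Whether the LPS response depended on genotype was tested as an interaction, given as WT minus IRF5 KO. For this 6.33% of tested genes were called higher and 3.49% lower, and 2 members were called higher, Bcl2l1 at 1.35 (SE 0.37, adjusted p = 0.0209) and Bcl2l11 at 1.15 (SE 0.22, adjusted p = 0.00265). The count was 5 without library 3 of IRF5 KO LPS DMSO (16.5% of tested genes higher and 7.02% lower) and 0 with library 3 alone (2.55% and 3.93%), where Bcl2l1 was at 0.61 (adjusted p = 0.0742) and Bcl2l11 at 0.74 (adjusted p = 0.0131). It was 1 without library 2 of that group (3.94% of tested genes higher). It was also 1 without WT unstimulated library 1 (4.39% higher and 2.68% lower) or 2 (4.4% and 2.6%). Without WT unstimulated library 3 it was 4 (4.62% and 2.74%). Bcl2a1a and Bcl2a1b were also called without IRF5 KO unstimulated library 3. The sum of the A1 copies had an interaction of 0.90 (adjusted p = 0.00883), below the fold threshold. Mcl1 at 0.57 (adjusted p = 0.0968), Pmaip1 at 0.20, Bbc3 at 0.02, Bax at -0.07 and Bcl2 at -0.18 did not pass the test. Without library 3 of IRF5 KO LPS DMSO, Mcl1 was at 0.87 (adjusted p = 7.46e-05) and passed, below the fold threshold. Pmaip1 was then at 0.18, Bbc3 at -0.235, Bax at -0.21 and Bcl2 at 0.09, and none of these passed.

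With defactinib, 8 of the 10 members fell in LPS-stimulated WT BMDMs, across both the pro-survival and the BH3-only genes. None were called higher. In this comparison 18.6% of tested genes were called lower and 10.4% higher. The members' median log2 fold change was -1.18, beside 0.09 for all tested genes. The 2 members not called were Bcl2 and Bax. The mitochondrial share of counts was higher in the same defactinib libraries and without overlap 3 of 8 dendritic cell markers lay lower and 2 higher in them, and 2 of 8 macrophage markers lower and 5 higher, as given above. Their part in the result was not tested.

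Bcl2l1 fell most. It was at 46.9, 38.6 and 57.2 CPM with defactinib, beside 607, 721 and 739 CPM with DMSO, a log2 fold change of -3.86 (SE 0.29, adjusted p = 7.02e-08). These libraries were also below those of WT unstimulated (112 to 132 CPM). Mcl1, which had not passed the test with LPS, was at 161, 130 and 187 CPM with defactinib and at 503 to 534 CPM with DMSO, a log2 fold change of -1.70 (SE 0.17, adjusted p = 9.18e-07). It too lay below the unstimulated libraries (456 to 465 CPM). The copies Bcl2a1a (221, 197 and 243 CPM), Bcl2a1b (150, 147 and 199 CPM) and Bcl2a1d (451, 398 and 528 CPM) stayed above the unstimulated levels of 170 to 189, 113 to 132 and 311 to 352 CPM. The sum of the copies fell by 1.09 on the log2 scale (SE 0.15, adjusted p = 2.23e-05). Bcl2a1d alone fell by 1.02 and was not called with only the groups compared in the fit (-0.987), or without WT LPS DMSO library 1 or 3 or WT LPS defactinib library 1 or 2, at -0.92 at the least. Scaling by library size alone, which moved the median of all genes to 0.29 and the called shares to 15% higher and 15.5% lower, ended the calls of the 3 copies (-0.996, -0.914 and -0.824). Bcl2 was at 23.6, 18.7 and 14.002 CPM, all below the 25.5 to 32.8 CPM with DMSO, and its log2 fold change of -0.60 (adjusted p = 0.0118) was below the fold threshold.

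All 3 BH3-only members fell. Bcl2l11 was at 31.9, 29.1 and 29.9 CPM with defactinib, beside 144 to 188 CPM with DMSO, a log2 fold change of -2.49 (SE 0.16, adjusted p = 1.49e-08). This left it above the unstimulated range of 25.3 to 27.3 CPM in every library. Bbc3 was at 8.58, 8.44 and 6.22 CPM with defactinib and 32.3 to 39.2 CPM with DMSO (-2.18, SE 0.22, adjusted p = 9.72e-07), below the unstimulated 15.6 to 17.3 CPM. Pmaip1 was at 43.7, 35.3 and 26.1 CPM, beside 74.5 to 82.5 CPM with DMSO, and fell by 1.17 on the log2 scale (SE 0.16, adjusted p = 2.27e-05). Without WT LPS defactinib library 3 it was at -0.98 and not called, nor was it with library size alone (-0.97). Bax was at 135, 168 and 137 CPM, each above the 120 to 134 CPM with DMSO, with a log2 fold change of 0.19 (95% interval -0.07 to 0.46, adjusted p = 0.199).

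In IRF5 KO BMDMs no member was called with defactinib, and 0 passed the false discovery rate in edgeR, with 1 member, Bcl2 (-0.46), below 0.05 before adjustment. DESeq2, limma-voom and the other fits also called 0 members. Of tested genes 0.76% were called lower and 0.16% higher. The first share was 5.16% without library 1 and 5.28% without library 2 of IRF5 KO LPS DMSO, and 0.0686%, 0.112% and 0.0809% without library 1, 2 or 3 of IRF5 KO LPS defactinib, while no member was called in any of these fits. Bcl2l1 was at 158, 169 and 159 CPM with defactinib, between the 121 and 124 CPM of libraries 1 and 2 and the 300 CPM of library 3 with DMSO (log2 fold change -0.17, 95% interval -0.71 to 0.38). Mcl1 was at 411, 410 and 418 CPM, again between libraries 1 and 2 and library 3 (0.22, 95% interval -0.12 to 0.57). Bcl2l11 at 64.0, 69.4 and 60.9 CPM (0.05), Pmaip1 at 169, 166 and 185 CPM (0.16) and Bbc3 at 28.7, 38.2 and 30.1 CPM (0.12) also had intervals that held 0. Bcl2 was at -0.46 (adjusted p = 0.146), Bax at 0.09 and the A1 copies at -0.20 to -0.02, and none of these passed the test.

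The number of members called did not depend on library 3 of IRF5 KO LPS DMSO, but the sizes of their changes did. With library 3 as the lone DMSO library, 7 of the 10 members passed the false discovery rate, though none reached 2-fold, and 14.6% of tested genes were called lower and 4.63% higher. Bcl2l1 was then at -0.91 (adjusted p = 0.0003), Bcl2 at -0.90 (adjusted p = 0.000705), Bcl2a1a at -0.60 (adjusted p = 0.00077), Bcl2a1d at -0.56 (adjusted p = 0.00393) and Bcl2a1b at -0.45 (adjusted p = 0.0306). Bbc3 was at 0.79 (adjusted p = 0.00421) and Bax at 0.40 (adjusted p = 0.0416). Without library 3, Mcl1 alone passed the false discovery rate, at 0.52 (adjusted p = 0.00633).

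The matching interaction for defactinib, again WT minus IRF5 KO, was called lower for 6 members, where 12.3% of tested genes were called lower and 10.5% higher. It was -3.69 for Bcl2l1 (SE 0.38, adjusted p = 3.2e-06), -2.54 for Bcl2l11 (adjusted p = 6.09e-07), -2.30 for Bbc3 (adjusted p = 2.55e-05) and -1.93 for Mcl1 (adjusted p = 1.45e-05). Pmaip1 was at -1.33 (adjusted p = 0.000295) and Bcl2a1b at -1.09 (adjusted p = 0.00162). These last 2 lost their call with library size alone and in a test against the 2-fold threshold itself (glmTreat), which each left 4. Library size alone called 8.17% of tested genes lower and 18.2% higher, and glmTreat 5.54% and 3.13%. With library 3 as the lone library of IRF5 KO LPS DMSO, Bcl2l1 was at -2.94, Bcl2l11 at -2.11 and Bbc3 at -2.95. Mcl1 was then at -1.44, Pmaip1 at -1.32 and Bcl2a1b at -0.65. Without library 3 all 8 genes that fell in WT were called, with Bcl2l1 at -4.26 and Mcl1 at -2.22. In that fit 18.8% of tested genes were called lower and 12.8% higher. The sum of the A1 copies was at -0.94 (SE 0.21, adjusted p = 0.00236) and not called, so the call of Bcl2a1b rests on the split between copies. Bcl2a1d at -0.86 was below the fold threshold, as was Bcl2a1a at -0.999, which was called with DESeq2, its size factors, limma-voom, no filter or the replicate block, and without library 3 of WT LPS defactinib or IRF5 KO LPS DMSO or library 2 of IRF5 KO LPS defactinib. Bcl2 at -0.14 and Bax at 0.11 did not pass the test. Bcl2a1b also lost its call without library 1 or 2 of IRF5 KO LPS DMSO, library 1 or 2 of WT LPS defactinib or library 3 of IRF5 KO LPS defactinib, at -0.94 at the least.

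**Figure D3:**
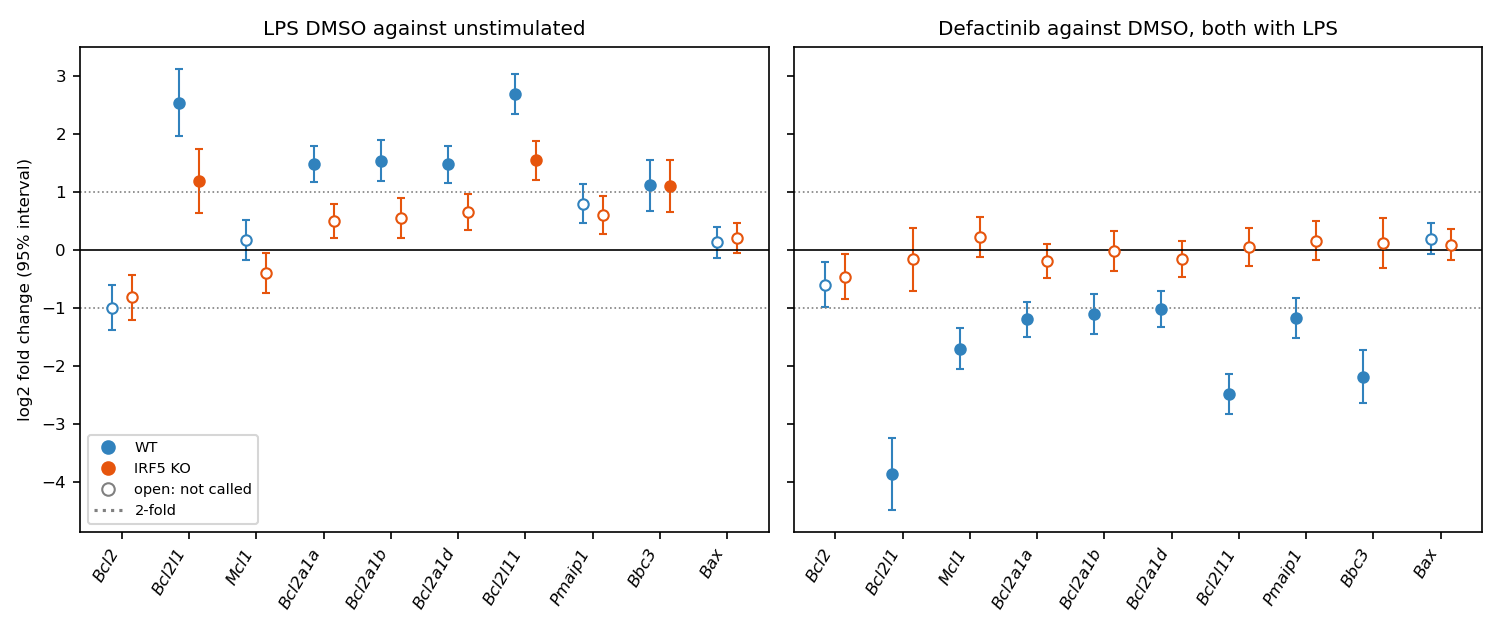
Log2 fold changes of the 10 members with LPS and with defactinib in WT and in IRF5 KO, with 95% intervals. Filled points were called, open points were not, and dotted lines mark 2-fold. With defactinib 8 members of WT lie at or below -1.02, while the IRF5 KO points lie between -0.46 and 0.22 when all 3 DMSO libraries are used.

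Between the genotypes, NOXA transcript stood out before any stimulus. Pmaip1 was at 46.7, 46.2 and 43.4 CPM in WT unstimulated and at 93.9, 129 and 85.5 CPM in IRF5 KO unstimulated, a log2 difference (WT minus IRF5 KO) of -1.18 (SE 0.16, adjusted p = 9.37e-05). It was the only member called, where 3.51% of tested genes were called lower in WT and 3.8% higher. Without library 2 of IRF5 KO unstimulated the difference was -0.98 and not called. The other members did not pass the test, with Bcl2l1 at 0.57 (adjusted p = 0.168), Bcl2l11 at 0.29, Bbc3 at 0.23, the A1 copies at 0.0005 to 0.26, and Bcl2, Bax and Mcl1 at 0.04, 0.01 and -0.02. Library 3 of IRF5 KO LPS DMSO enters the spread that all groups share. Without it, Bcl2l1 (0.573, adjusted p = 0.00151) and Bcl2l11 (0.288, adjusted p = 0.0467) passed the test, below the fold threshold. In the same groups, marker genes of other cell types with a mean of at least 1 CPM also lay apart, with 3 of 7 neutrophil markers (Mmp8 at 169 to 205 CPM in WT and 1001 to 1620 CPM in IRF5 KO, Ngp and Camp) and both of the mast cell and basophil markers (Gata2 at 3.16 to 3.35 and 30.8 to 34.1 CPM, Kit at 6.29 to 7.31 and 14.97 to 20.8 CPM) lower in WT. The neutrophil markers other than Mmp8 summed to 62.9 to 85.7 CPM in WT and 76.2 to 89.5 CPM in IRF5 KO. Of 6 dendritic cell markers 2 lay lower in WT, among them Dpp4 (6.0004 to 7.153 and 22.6 to 40.8 CPM), and 3 higher, and of 8 macrophage markers 5 lay lower, among them Adgre1 (70.3 to 75.2 and 291 to 320.2 CPM), and Mertk higher. Their part in the difference of Pmaip1 was not tested, and the share of all tested genes that lay apart in the same way was not counted.

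After LPS with DMSO, 4 members were higher in WT, where 14% of tested genes were called higher and 11.8% lower. These were Bcl2l1 at 1.92 (SE 0.27, adjusted p = 3.73e-05), Bcl2l11 at 1.44 (SE 0.16, adjusted p = 3.62e-06), Bcl2a1b at 1.10 (adjusted p = 6.18e-05) and Bcl2a1d at 1.08 (adjusted p = 2.9e-05). Bcl2a1a was at 0.98 (adjusted p = 4.75e-05) and the sum of the copies, at 1.06 (adjusted p = 3.82e-05), was called. With library 3 alone in the IRF5 KO group Bcl2l1 was at 1.18 and Bcl2l11 at 1.03. Bcl2a1b (0.969 and 0.976) and Bcl2a1d (0.968 and 0.963) lost their calls without library 1 or without library 2. Without library 3, 5 members were called higher, beside 20.7% of tested genes called higher and 13.8% lower. Pmaip1 was at 159, 156 and 153 CPM in IRF5 KO, all above the 74.5 to 82.5 CPM of WT (-0.98, adjusted p = 0.000134), below the fold threshold. Library 3 did not stand apart for this gene. Mcl1 at 0.55 (adjusted p = 0.0108) was below the fold threshold, and Bbc3 at 0.24, Bax at -0.06 and Bcl2 at -0.14 did not pass the test. Without library 3 these genes were at 0.85, -0.009, -0.20 and 0.13 in the same order. Of the markers, Mmp8 (180.2 to 239.5 CPM in WT and 992 to 1568 CPM in IRF5 KO), Ly6g, Gata2 (3.18 to 4.32 and 25.9 to 51.5 CPM), Kit (9.05 to 10.4 and 14.6 to 20.2 CPM), Dpp4 (10.01 to 12.996 and 35.1 to 58.8 CPM) and 3 of 8 macrophage markers lay lower in WT without overlap. Flt3, Zbtb46, Ccr7, Mertk and Cd8a lay higher. Neutrophil markers other than Mmp8 summed to 122 to 237 CPM in these WT and 149 to 186 CPM in these IRF5 KO libraries. The part of these cells in the differences was not tested.

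After LPS with defactinib, 5 members were lower in WT than in IRF5 KO and none higher, where 8.87% of tested genes were called lower and 8.45% higher. This comparison has no IRF5 KO LPS DMSO library on either side, but its p-values use the spread shared by all groups. Pmaip1 differed by -2.31 (SE 0.17, adjusted p = 4.62e-08), with 26.1 to 43.7 CPM in WT and 166 to 185 CPM in IRF5 KO. Bbc3 differed by -2.06 (adjusted p = 2.34e-06), Bcl2l1 by -1.77 (adjusted p = 9.65e-05), Mcl1 by -1.38 (adjusted p = 1.04e-05) and Bcl2l11 by -1.10 (adjusted p = 4.87e-05). The libraries did not overlap for any of the 5, and each was called with any single library left out. The A1 copies did not pass the test, with a log2 difference of their sum of 0.12 (SE 0.15, adjusted p = 0.568). Bcl2 at -0.27 and Bax at 0.05 did not pass it either. Of the markers, Mmp8 (175 to 352 CPM in WT and 2391 to 2563 CPM in IRF5 KO), S100a9, Gata2 (0.31 to 0.90 and 32.0 to 36.95 CPM), Zbtb46 (19.99 to 30.2 and 69.2 to 73.0 CPM), Ccr7 and 5 of 8 macrophage markers lay lower in WT without overlap. Flt3, Fcgr1 and Mertk lay higher. Neutrophil markers other than Mmp8 summed to 117 to 168 CPM in WT and 147 to 170.3 CPM in IRF5 KO. The part of these cells in the differences was not tested.

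The members' patterns over the 18 libraries were compared by Pearson's r of log2 CPM, as a description of points that share groups and scaling. The A1 copies, which share sequence, correlated at 0.974 to 0.988. Bcl2l11 followed Bcl2a1a (0.914) and Bcl2l1 (0.893). Mcl1 and Bcl2l1 were at 0.673, and Pmaip1 was closest to Bbc3 (0.711). Bcl2 and Bax had r = -0.751. The tested genes outside the family with the most similar pattern were Cdkn1a for Bcl2l1 (0.983), Tmem168 for Mcl1 (0.991), Cpeb4 for Bcl2l11 (0.985), Cd40 for Bcl2a1b (0.983), Sbds for Bcl2a1a (0.986), Sp140 for Bcl2a1d (0.982) and Acot6 for Bcl2 (0.974). Those for Pmaip1 (Gm4739, 0.955), Bbc3 (Kbtbd2, 0.962) and Bax (Prelid1, 0.955) had the lowest r. Cdkn1a, which encodes the cell cycle inhibitor p21, had 2302, 2412 and 2468 CPM in WT LPS DMSO and 337, 311 and 560 CPM in WT LPS defactinib.

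Other genes of the apoptosis pathway were followed in 6 lists with 64 genes, of which 59 were tested. The lists hold the remaining BCL2 family, the apoptosome and caspases, caspase inhibitors with death receptor regulators, ubiquitin enzymes of MCL1, transcription factors that act on BH3-only genes, and p53 target genes. With LPS in WT, 9 were called higher (15.3%, beside 11.6% of all tested genes) and 8 lower (13.6%, beside 9.71%), and the median log2 fold change was 0.01. Of the caspase inhibitors and death receptor regulators 3 of 13 were higher and none lower. Cflar, which encodes the caspase-8 inhibitor c-FLIP, rose from 130, 127 and 128 CPM to 1296, 1315 and 1379 CPM (log2 fold change 3.37, SE 0.24, adjusted p = 3.94e-08). Birc2, which encodes cIAP1, rose by 1.45 on the log2 scale (adjusted p = 6.14e-05). Among the other BCL2 family genes Bmf, a BH3-only gene, fell from 64.0, 64.4 and 57.4 CPM to 7.28, 8.98 and 10.9 CPM (-2.77, adjusted p = 0.00519), and Bcl2l14 rose from 0.30 to 0.51 CPM to 4.32 to 4.60 CPM (3.47, adjusted p = 0.0006). A further copy, Bcl2a1c, had no count in WT unstimulated and 0.36 to 0.77 CPM in WT LPS DMSO. Casp9, the caspase of the apoptosome, fell by 1.79 on the log2 scale (adjusted p = 7.31e-06). Foxo3, a transcription factor known to act on Bcl2l11 and Bbc3, fell by 2.17 (adjusted p = 1.91e-05), from 55.1 to 59.6 CPM to 12.2 to 13.8 CPM.

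With defactinib in LPS-stimulated WT cells 13 list genes were called lower (22%) and 5 higher (8.47%), beside the 18.6% and 10.4% of all tested genes. Of 13 caspase inhibitors and death receptor regulators 5 fell. The largest falls were those of Ripk1, a kinase of the TNF receptor complex (log2 fold change -2.04, adjusted p = 2.35e-05), the TNF receptor gene Tnfrsf1a (-1.86, adjusted p = 0.00274) and Birc3 (-1.67, adjusted p = 4.08e-05). Apaf1, the scaffold of the apoptosome, fell from 137, 143 and 123 CPM to 23.2, 18.2 and 35.2 CPM (-2.40, adjusted p = 5.42e-05). Of the MCL1 ubiquitin enzymes, Usp9x, which removes ubiquitin from MCL1, and the ligase subunit Fbxw7 fell by 1.10 (adjusted p = 7.01e-05) and 1.18 (adjusted p = 7.16e-07). Usp9x was at -0.86 and not called without WT LPS defactinib library 2. Btrc, another ligase subunit, rose by 1.33 (adjusted p = 4.49e-06). Foxo1 fell by 1.76 (adjusted p = 2.65e-07) and Jun rose by 2.48 (adjusted p = 0.00125), from 33.3 to 40.3 CPM to 118 to 256 CPM. Cdkn1a fell by 2.57 (adjusted p = 1.24e-07) and Eda2r by 2.01 (adjusted p = 7.8e-06), and of the 12 p53 target genes 2 fell and 1 rose.

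In IRF5 KO, 3 list genes were called higher and 5 lower with LPS (5.08% and 8.47%, beside 7.07% and 6.28% of all tested genes), and 1 lower with defactinib (1.69%, beside 0.76%). Cflar was at 122, 129 and 123 CPM unstimulated and at 809, 810 and 464 CPM after LPS (2.48, adjusted p = 5.16e-06). Jun was at 482 and 477 CPM in libraries 1 and 2 of IRF5 KO LPS DMSO and at 51.0 CPM in library 3, beside 57.7 to 66.0 CPM unstimulated and 482 to 535 CPM with defactinib, so that its direction with LPS (2.44) rested on the library (-0.27 with library 3 alone). Bmf, chosen here after its values were seen, had the same split, at 5.65 and 3.58 CPM in libraries 1 and 2 and 60.5 CPM in library 3. The gene called with defactinib was the BH3-only gene Bid, at 5.45, 4.88 and 18.1 CPM with DMSO and 3.36 to 3.51 CPM with defactinib (-1.48, adjusted p = 0.0364). Bid was at -0.595 and not called without library 3, nor with the replicate block (-1.37, adjusted p = 0.0546) or limma-voom (-1.26, adjusted p = 0.0818), and was at -2.42 with library 3 alone. Between unstimulated WT and IRF5 KO, 3 list genes were higher in WT and 1 lower (5.08% and 1.69%, beside 3.8% and 3.51%). The p53 target gene Perp was at 8.65, 8.68 and 8.74 CPM in WT and 0.42, 0.89 and 0.49 CPM in IRF5 KO (3.86, adjusted p = 6.4e-06). After LPS with DMSO 11 were higher and 7 lower (18.6% and 11.9%, beside 14% and 11.8%). After LPS with defactinib 6 were higher and 9 lower (10.2% and 15.3%, beside 8.45% and 8.87%). In the interaction for LPS 10 were higher and 4 lower (16.9% and 6.78%, beside 6.33% and 3.49%), and in that for defactinib 5 and 9 (8.47% and 15.3%, beside 10.5% and 12.3%). None of these shares was tested against that of all genes.

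**Figure D4:**
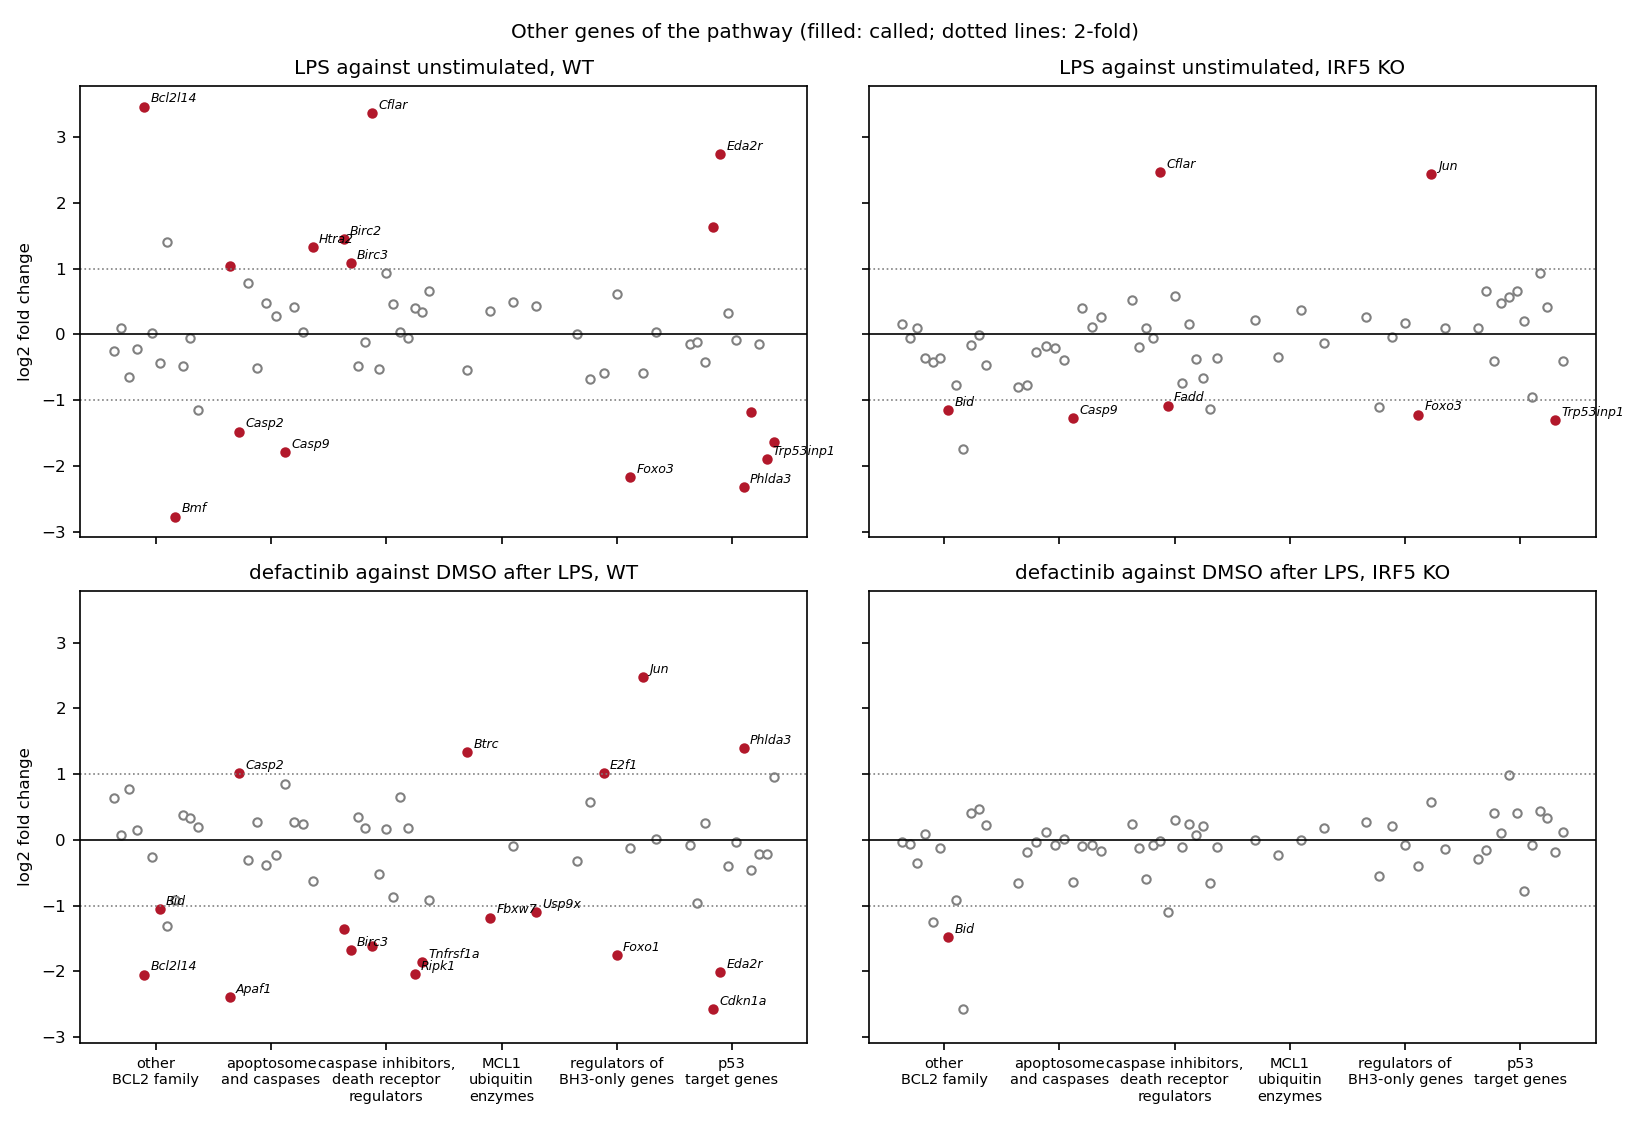
Log2 fold changes of the tested genes of the 6 lists with LPS (top) and defactinib (bottom) in WT (left) and IRF5 KO (right). Filled points were called, dotted lines mark 2-fold, and up to 3 called genes of each list are named. Bcl2a1c, with no count in WT unstimulated, is left out. In WT with defactinib 13 genes were called lower and 5 higher, and in IRF5 KO only Bid was called.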

How the data were processed

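RNA-seq counts of 18 libraries were used, in 6 groups of 3 given by the labels. Per the authors' methods, read pairs were aligned to mm10 with STAR and uniquely mapped pairs were counted with featureCounts 1.6.3, reverse stranded. The deposited table holds these raw counts per Ensembl gene, without normalization. Of 50600 gene IDs 50376 had a symbol in GENCODE, and 24142 had no count in any library.

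Counts were normalised by TMM and tested with edgeR 4.0.16 (R 4.3.3), by the quasi-likelihood F test with a robust fit of 1 mean per group, after filterByExpr. Tests were two-sided, and p-values were adjusted by the Benjamini-Hochberg method per comparison over all 15663 genes kept. The standard error is the log2 fold change divided by the square root of F. Correlations used log2 CPM with a prior count of 2. P-values measure the spread between replicates, estimated over all groups together. A library of 1 group thus bears on the p-values of comparisons without it. Without library 3 of IRF5 KO LPS DMSO, the adjusted p (edgeR) of Bcl2l1 with defactinib in WT was 1.91e-13, beside 7.02e-08 with it. On simulated data for WT LPS DMSO against WT unstimulated (15207 genes), 91% of genes changed by 1.5 and 96% of genes changed by 2 on the log2 scale were called.

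The members and lists were chosen with earlier results of these data known. By the rule for named genes, these are all members in every comparison, with the A1 copies given as their sum or range in some, and of each list up to the 3 called genes with the largest change. Only some of these list genes are printed in the text. None is printed for the interactions or for WT against IRF5 KO after LPS. As alternatives, DESeq2 1.42.0 and limma-voom (limma 3.58.1) were run, and in edgeR no filter, size factors of DESeq2, library size alone, the replicate number as a block, only the groups compared, a threshold inside the test (glmTreat), the copies summed and each library left out. IRF5 KO LPS DMSO with library 3 alone was added after the data were seen. Promoters and transcripts were taken from RefSeq and GENCODE vM21.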

Additional observations from a re-analysis of the deposited data

Results flagged for a closer look

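Members whose response differed between the genotypes in a test of the difference itself (false discovery rate below 0.05 for the interaction in edgeR, WT minus IRF5 KO, log2 scale) are listed here. For LPS these were Bcl2l1 (1.35), Bcl2a1a (0.982), Bcl2a1b (0.978), Bcl2a1d (0.824) and Bcl2l11 (1.15). For defactinib they were Bcl2l1 (-3.69), Mcl1 (-1.93), Bcl2a1a (-0.999), Bcl2a1b (-1.09), Bcl2a1d (-0.858), Bcl2l11 (-2.54), Pmaip1 (-1.33) and Bbc3 (-2.3). All of these values use the 3 IRF5 KO LPS DMSO libraries, of which library 3 stood apart. With library 3 alone, the values of these members lay at 0.425 to 0.735 for LPS and at -2.95 to -0.45 for defactinib. Without library 3, Mcl1 (0.872) passed as well for LPS, and the same members passed for defactinib. The share of all tested genes that passed the false discovery rate alone is not given here. Single outlying values were not tested in groups of 3 libraries.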

How the results depend on the processing

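Of 35 pairs of member and comparison that were called, 26 stayed called with each of the 18 libraries left out, and 19 of these under every other setting too. Over 184 pairs of named gene and comparison, 4651 of 4993 alternative values stayed on the same side of the thresholds with the same direction, 303 lost and 38 gained a call, and 1 reversed, Jun with LPS in IRF5 KO, at -0.268 with library 3 as the lone IRF5 KO LPS DMSO library.

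The number of members called changed as follows, with the shares of all tested genes called higher and lower in brackets. For LPS in WT it was 6 (11.6% and 9.71%), and 5 with glmTreat (6.35% and 3.77%), without Bbc3. It was 7, with Bcl2, with no filter (6.82% and 5.74%) or limma-voom (11.7% and 10.1%). For LPS in IRF5 KO it was 3 (7.07% and 6.28%), and 2 with library size alone (5.75% and 10.8%). It was 1 with only the groups compared (1.05% and 0.0353%) or with glmTreat (2.09% and 0%). For defactinib in WT it was 8 (10.4% and 18.6%), and 7 with only the groups compared (10.6% and 19%), without Bcl2a1d. It was 4 with library size alone (15% and 15.5%) or glmTreat (4.09% and 11.3%). For WT against IRF5 KO it was 1 unstimulated (3.8% and 3.51%). It was 4 after LPS DMSO (14% and 11.8%) and 5 after LPS defactinib (8.45% and 8.87%). With glmTreat these were 0 (1.21% and 1.06%), 2 (6.54% and 4.69%) and 3 (2.63% and 3.99%). After LPS DMSO it was also 3 with library size alone (10.4% and 16.8%). It was 5 with DESeq2 (13.1% and 10.7%), its size factors (14.4% and 11.4%), limma-voom (16% and 9.05%) or only the groups compared (10.7% and 8.83%). For the LPS interaction it was 2 (6.33% and 3.49%), and 0 with library size alone (4.17% and 5.15%) or glmTreat (0.396% and 0.294%). It was 1 without the filter (2.55% and 1.71%) and 4 with limma-voom (9.28% and 2.8%). For the defactinib interaction it was 6 (10.5% and 12.3%), and 4 with library size alone (18.2% and 8.17%) or glmTreat (3.13% and 5.54%). It was 7, with Bcl2a1a, with DESeq2 (9.64% and 11.2%), its size factors (10.4% and 12.5%), limma-voom (8.61% and 14.3%) or no filter (5.86% and 6.65%). With single libraries left out, the counts ranged from 2 to 3 for LPS in IRF5 KO, 6 to 7 for LPS in WT, 7 to 8 for defactinib in WT, 0 to 1, 2 to 5 and 5 to 5 for WT against IRF5 KO in the order above, 1 to 5 for the LPS interaction and 5 to 8 for the defactinib interaction. It was 0 for defactinib in IRF5 KO in each of these fits. The shares of all tested genes in the fits with a library left out are given above for some of them only.

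Libraries with the same replicate number in different groups had residuals that correlated at 0.00455 in the median of 45 pairs and above 0.1 in 4 of them, so the numbers were not taken as pairs. With the replicate block, 4 members were called for the LPS interaction and 7 for the defactinib interaction, with Bcl2a1a (1.00 and -1.02) and Bcl2a1b (1.01, LPS) added, and the calls of the other comparisons stayed.

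Scaling by library size alone moved the median of all genes to -0.383 for LPS in WT (8.27% called higher and 18.1% lower), -0.231 for LPS in IRF5 KO (5.75% and 10.8%), 0.286 and -0.168 for defactinib in WT and IRF5 KO, -0.122 for WT against IRF5 KO unstimulated, -0.302 after LPS DMSO (10.4% and 16.8%) and 0.101 after LPS defactinib, -0.201 for the LPS interaction (4.17% and 5.15%) and 0.451 for the defactinib interaction (18.2% and 8.17%). Over all genes, 1108 were called higher and 983 lower for LPS in IRF5 KO, and 148 and 5 with only the groups compared, 683 and 1501 with limma-voom. For defactinib in IRF5 KO, 25 were called higher and 119 lower, and 40 and 471 with DESeq2, 41 and 54 with limma-voom, 20 and 59 without the filter, 25 and 57 with the replicate block, and 8 and 1 with only the groups compared. With single libraries left out, 8 to 98 were higher and 11 to 847 lower. For the LPS interaction 992 were called higher and 547 lower, and 676 and 452 without the filter. GlmTreat called fewer in every comparison. The cause of these changes was not tested.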
